A study of Mus musculus with 6 samples.

Results

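The genes described here encode the enzymes of the methionine cycle, of transsulfuration and of taurine and sulfate formation: Mat1a, Gnmt, Ahcy, Bhmt, Bhmt2, Cbs, Cth, Cdo1, Csad and Suox. They were chosen by name, and every probe set annotated to 1 of these symbols alone was taken, which gave 12 probe sets for the 10 genes, out of 45037 probe sets for 18193 genes on the array. Liver RNA of 6 mice was measured on 1 Affymetrix 3' array each, to compare a diet with collagen peptide with a casein diet. All mice were male BALB/cCrSlc, an inbred albino strain, aged 17 weeks, and both groups ate a low-protein diet built on the purified maintenance diet AIN-93M for 10 weeks. The diet 6C+4CP held 6% casein and 4% fish collagen peptide, and the control diet 10C held 10% casein. The diets differ both in casein and in collagen peptide, and effects of the one cannot be told apart from effects of the other. From the 12 mice on each diet, the 3 arrayed ones were those of medium food efficiency, the weight gain per food eaten. Liver was taken in the morning after 3 h without food. Another group that the design text counts is not analysed here.

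Methionine enters this pathway through its activation to S-adenosylmethionine, the methyl donor of most cellular methylation. After the methyl group is passed on, homocysteine is released, and it is either methylated back to methionine or joined to serine on the way to cysteine. Cysteine is used for protein and glutathione, or is oxidised to taurine and sulfate, and the liver carries much of this traffic. Casein supplies methionine, whereas collagen holds little methionine and almost no cysteine and is rich in glycine, the methyl acceptor of the enzyme Gnmt.

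The values are the authors' processed values, read here as log2. No source used here states the base, and the folds below rest on that reading. Medians of the 6 arrays lay between 6.306 and 6.308. Only 7791 of the 45037 probe sets (17.3%) ranged over more than 0.01 across the 6 arrays, and these are called varying below; the rest carry nearly the same value on all of them. All 12 probe sets of the pathway varied, with ranges from 0.23 for Mat1a to 2.38 for Csad. The hepatocyte gene Alb (albumin) was listed at 14.23 on every array, near the top of the value range, and the bile duct marker Krt19 at 6.18, brighter than 40.9% of probe sets. The array 6C+4CP replicate 2 stood apart in its 3' to 5' control difference, a sign of RNA integrity and labelling. That difference was 1.69 for beta-actin and 0.62 for Gapdh on this array, against 1.15 to 1.27 and 0.18 to 0.31 on the other arrays. In 10C replicate 2 the acute phase gene Saa1 stood at 14.03, against 7.54 to 9.13 in the other mice. Across varying probe sets 10C replicate 3 correlated with 6C+4CP replicate 2 at r = 0.985, above its 0.971 and 0.973 with the other 10C mice (a description over probe sets of shared arrays). Results that rest on one of these arrays are also given without it.

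Most enzymes of the pathway had somewhat lower values in 6C+4CP livers than in 10C livers, and none of these differences passed the test. Of the 12 probe sets, 10 had a lower mean in 6C+4CP and 2 a higher one, Mat1a and Csad, where 52.1% of all varying probe sets had a lower mean. The median difference was -0.18 (log2, 6C+4CP minus 10C) over the 12, beside -0.0040 over all varying probe sets, and it was -0.12 without 10C replicate 2. Gnmt, Cth and 1 of the 2 probe sets of Bhmt2 were lower in 6C+4CP with no overlap between the 3 mice of each diet, while 9.11% of all varying probe sets were lower without overlap. No probe set of the pathway was higher without overlap, against 10.8% of the varying ones. Csad, the enzyme that makes the precursor of taurine, had the largest difference, 2.23 times higher in 6C+4CP, carried by 2 of its 3 mice.

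By limma's moderated test, 0 of the 12 probe sets passed a Benjamini-Hochberg adjusted p under 0.05 over all probe sets, where 109 of 45037 (0.242%) did. Of those 109, 103 ranged over at most 0.01, so that the calls lie mainly among values shared by the arrays. Adjusted p ran from 0.62 to 0.95 over the 12. When varying probe sets alone were fitted, limma again called 0 of the 12, as it did of all 7791 (0%), with adjusted p from 0.21 to 0.86. At an unadjusted p under 0.05 the fit of all probe sets held 2 of the 12, and 13.1% of all varying probe sets reached that level. The 3 mice per diet give wide intervals, so a p above the threshold does not show that the levels were equal. Because whole liver was measured, fewer cells of a type and less RNA per cell cannot be told apart.

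**Figure D1:**
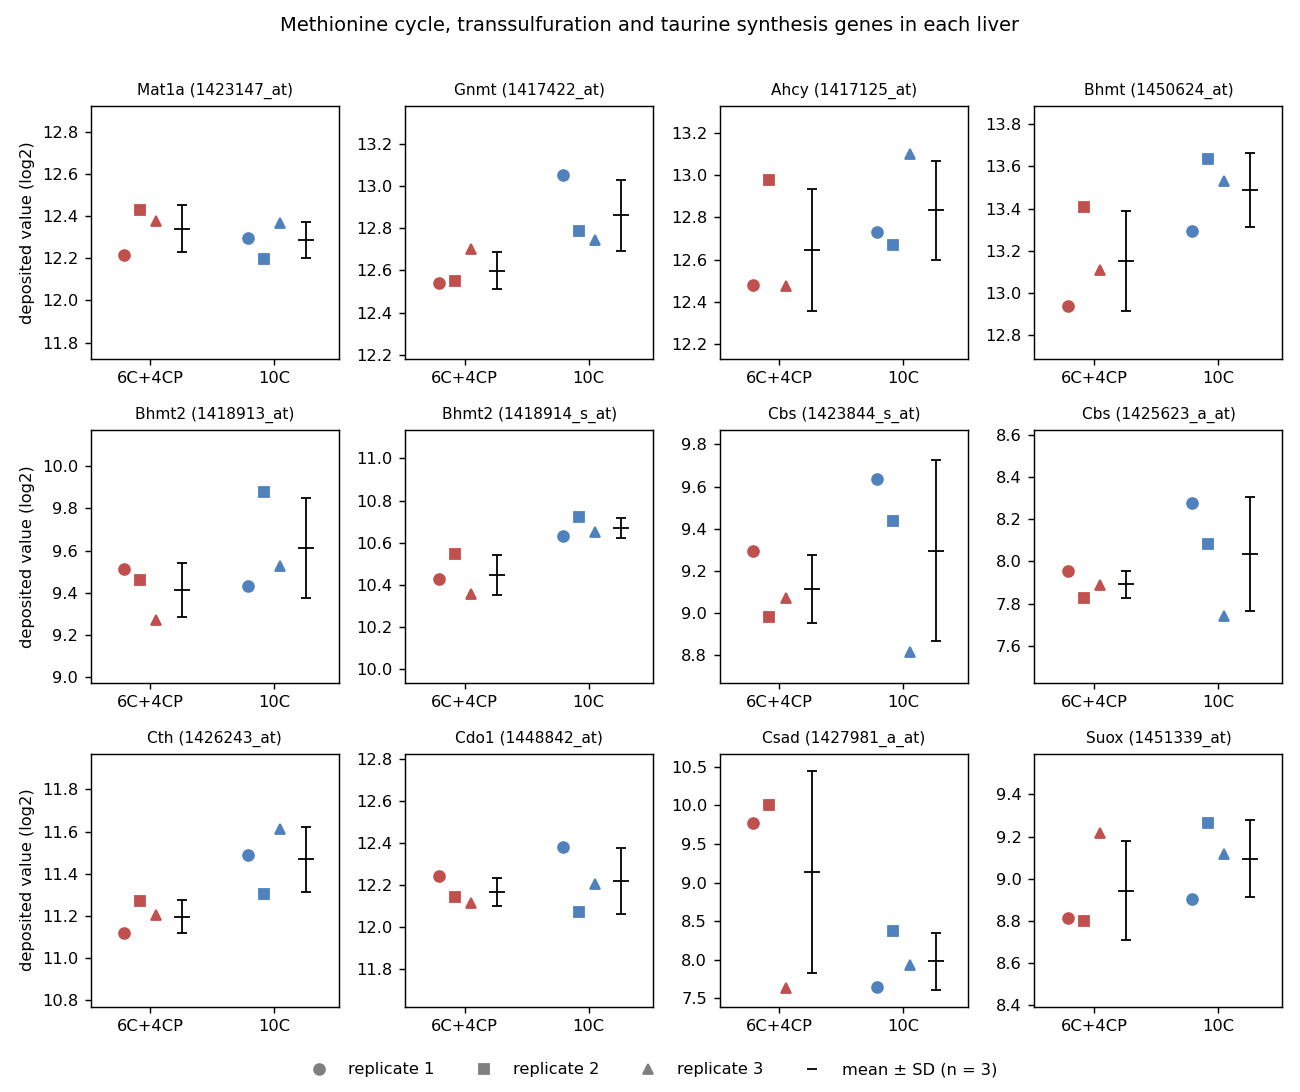
Deposited values (log2) of the 12 probe sets in each mouse, with 6C+4CP (red) left of 10C (blue), marker shape for the replicate number and the mean ± SD (n = 3) beside the points; vertical axes differ between panels. The diets lie apart for Gnmt, Cth and Bhmt2 (1418914_s_at), and Csad splits the 6C+4CP mice, with 9.77 and 10.01 against 7.63.

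Mat1a encodes the liver form of methionine adenosyltransferase, which makes S-adenosylmethionine from methionine. Its values were 12.21, 12.43 and 12.38 in 6C+4CP replicates 1 to 3, against 12.30, 12.19 and 12.37 in 10C replicates 1 to 3. The mice of the 2 diets interleaved, and the range over all 6 mice was the narrowest of the 12 probe sets. The difference was 0.054 (SE 0.081, 95% confidence interval -0.17 to 0.27, limma adjusted p = 0.93). Leaving out replicate 2 of either diet brought it to 0.010 (6C+4CP) or 0.0080 (10C). Leaving out 6C+4CP replicate 1 gave 0.12, and leaving out 10C replicate 3 gave 0.095.

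Gnmt encodes glycine N-methyltransferase, an abundant liver enzyme that moves the methyl group of S-adenosylmethionine to glycine and forms sarcosine, which disposes of surplus methyl groups. It read 12.54, 12.55 and 12.70 in the 6C+4CP mice and 13.05, 12.79 and 12.74 in the 10C mice. Every 6C+4CP mouse lay below every 10C mouse, with a gap of 0.044 between 6C+4CP replicate 3 and 10C replicate 3. The means were 12.60 ± 0.088 in 6C+4CP and 12.86 ± 0.17 in 10C (SD, n = 3 each), a difference of -0.26 (SE 0.11, interval -0.56 to 0.031) or 1.20 times lower in 6C+4CP. This did not pass (limma adjusted p = 0.70, or 0.32 among varying probe sets). The difference was -0.17 without 10C replicate 1, the mouse with the highest value.

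Ahcy encodes the enzyme that splits S-adenosylhomocysteine, the product of methylation, into homocysteine and adenosine. Its values were 12.48, 12.98 and 12.48 in 6C+4CP and 12.73, 12.67 and 13.10 in 10C. In each diet 1 mouse stood above the other two, 6C+4CP replicate 2 and 10C replicate 3. The difference of -0.19 (SE 0.21, limma adjusted p = 0.89) was smaller than the spread within either diet, which was 0.50 in 6C+4CP and 0.43 in 10C from lowest to highest mouse. Without 6C+4CP replicate 2 it was -0.35, and Ahcy then lay lower without overlap. It was -0.055 when 10C replicate 3 was left out, and leaving out replicate 1 or replicate 3 of 6C+4CP gave -0.11 and -0.10.

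Bhmt encodes betaine-homocysteine methyltransferase, which remakes methionine with a methyl group of betaine. It read 12.94, 13.41 and 13.11 in 6C+4CP, against 13.29, 13.64 and 13.53 in 10C. Only 6C+4CP replicate 2 reached into the range of the other diet, above 10C replicate 1. The means were 13.15 ± 0.24 in 6C+4CP and 13.49 ± 0.17 in 10C, or 1.26 times lower in 6C+4CP. The difference of -0.34 (SE 0.17, interval -0.80 to 0.12) had a limma adjusted p of 0.71. Without 6C+4CP replicate 2 it was -0.47, and Bhmt then lay lower without overlap. It was -0.23 without 6C+4CP replicate 1 and -0.26 without 10C replicate 2.

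Bhmt2 encodes a related enzyme that methylates homocysteine with S-methylmethionine, and its gene neighbours Bhmt. It has 2 probe sets, 1418914_s_at and 1418913_at. The suffix _s_at, which 1 Cbs probe set also has, marks probes that match more than 1 transcript, and which ones is not given in the files, so a share of signal from Bhmt was not tested. The first read 10.43, 10.55 and 10.36 in 6C+4CP and 10.63, 10.72 and 10.65 in 10C. All 6C+4CP mice lay below all 10C mice, and the difference of -0.22 (SE 0.060, interval -0.39 to -0.058) had the smallest limma adjusted p of the pathway, 0.62 (0.21 among varying probe sets). The second read 9.51, 9.46 and 9.27 in 6C+4CP and 9.43, 9.88 and 9.53 in 10C. These overlapped, and the difference of -0.20 (SE 0.15, limma adjusted p = 0.85) rested on 10C replicate 2, since it was -0.065 without that mouse and -0.13 without 6C+4CP replicate 3.

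The promoter windows of these 3 methyltransferase genes are shown because their means were all lower in 6C+4CP, from 250 bases before to 50 after the start, 5′ to 3′ on the gene's strand (RefSeq, GRCm38.p6, all on the minus strand). They are chr17:46729116-46729415 for Gnmt, chr13:93637709-93638008 for Bhmt and chr13:93674253-93674552 for Bhmt2. Capitals mark CCAAT or its reverse complement ATTGG, and GGGCGG or its reverse complement CCGCCC.
Gnmt: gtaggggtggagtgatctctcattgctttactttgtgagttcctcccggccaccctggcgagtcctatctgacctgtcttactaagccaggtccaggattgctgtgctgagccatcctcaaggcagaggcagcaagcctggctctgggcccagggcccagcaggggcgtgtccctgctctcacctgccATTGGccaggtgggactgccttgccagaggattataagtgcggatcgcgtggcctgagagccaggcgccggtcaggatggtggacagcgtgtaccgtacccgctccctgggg
Bhmt: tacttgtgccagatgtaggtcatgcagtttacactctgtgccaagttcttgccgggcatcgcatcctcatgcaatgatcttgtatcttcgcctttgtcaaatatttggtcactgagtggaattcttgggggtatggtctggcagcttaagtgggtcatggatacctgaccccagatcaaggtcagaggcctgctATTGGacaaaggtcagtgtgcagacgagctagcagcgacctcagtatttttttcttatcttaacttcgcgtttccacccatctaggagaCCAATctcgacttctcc
Bhmt2: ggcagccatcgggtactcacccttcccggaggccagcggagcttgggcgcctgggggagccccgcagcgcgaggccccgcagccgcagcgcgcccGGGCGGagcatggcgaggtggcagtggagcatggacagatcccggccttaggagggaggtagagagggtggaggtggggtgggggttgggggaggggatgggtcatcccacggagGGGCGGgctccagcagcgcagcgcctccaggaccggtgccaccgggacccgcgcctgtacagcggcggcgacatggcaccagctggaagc
Positions count from 1 at the start, with negative ones before it. Gnmt holds ATTGG at -62, and Bhmt holds it at -56 and CCAAT at 34. Bhmt2 holds none of these and has GGGCGG at -155 and -40. On either strand CCAAT is found in 37.4% and GGGCGG in 35.7% of the 32851 RefSeq promoter windows of this length. Windows of 7 of the 10 genes were searched (8 windows, since Csad has 2), and Mat1a, Cth and Cdo1 are named only. Of the 8 windows, 6 held CCAAT, 5 GGGCGG and 1, that of Cbs, CACGTG (7.15% of all windows). None held TGATGNAA, the core of amino acid response elements (3.97% of all), TATAAA (13.6%) or the nuclear receptor direct repeat with a spacer of 1 base (0.0396%). Motifs were searched on both strands, and in these windows no site overlapped a site of another motif. A match is a description of letters only.

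Cbs encodes cystathionine beta-synthase, which joins homocysteine to serine and commits it to cysteine. The first of its 2 probe sets, 1423844_s_at, read 9.30, 8.98 and 9.07 in 6C+4CP and 9.64, 9.44 and 8.81 in 10C. The highest and the lowest of the 6 mice were both 10C mice, replicates 1 and 3, and the 6C+4CP mice lay between them. The other probe set, 1425623_a_at, read 7.96, 7.83 and 7.89 in 6C+4CP and 8.28, 8.08 and 7.74 in 10C, with the mice in the same order within each diet. The differences were -0.18 (SE 0.26) and -0.14 (SE 0.16), with limma adjusted p of 0.92 and 0.89. They were -0.011 and -0.023 without 10C replicate 1. Without 10C replicate 3 they were -0.42 and -0.29, and both probe sets then lay lower in 6C+4CP without overlap.

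Cth encodes cystathionine gamma-lyase, which releases cysteine from cystathionine. It read 11.12, 11.27 and 11.20 in 6C+4CP, against 11.49, 11.31 and 11.61 in 10C. The diets did not overlap, with 0.035 between 6C+4CP replicate 2 and 10C replicate 2. The means were 11.20 ± 0.077 in 6C+4CP and 11.47 ± 0.15 in 10C, a difference of -0.27 (SE 0.098, interval -0.54 to -0.0037) or 1.21 times lower in 6C+4CP. It did not pass (limma adjusted p = 0.70, or 0.27 among varying probe sets). Leaving out each mouse in turn moved the difference between -0.35 and -0.20.

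**Figure D2:**
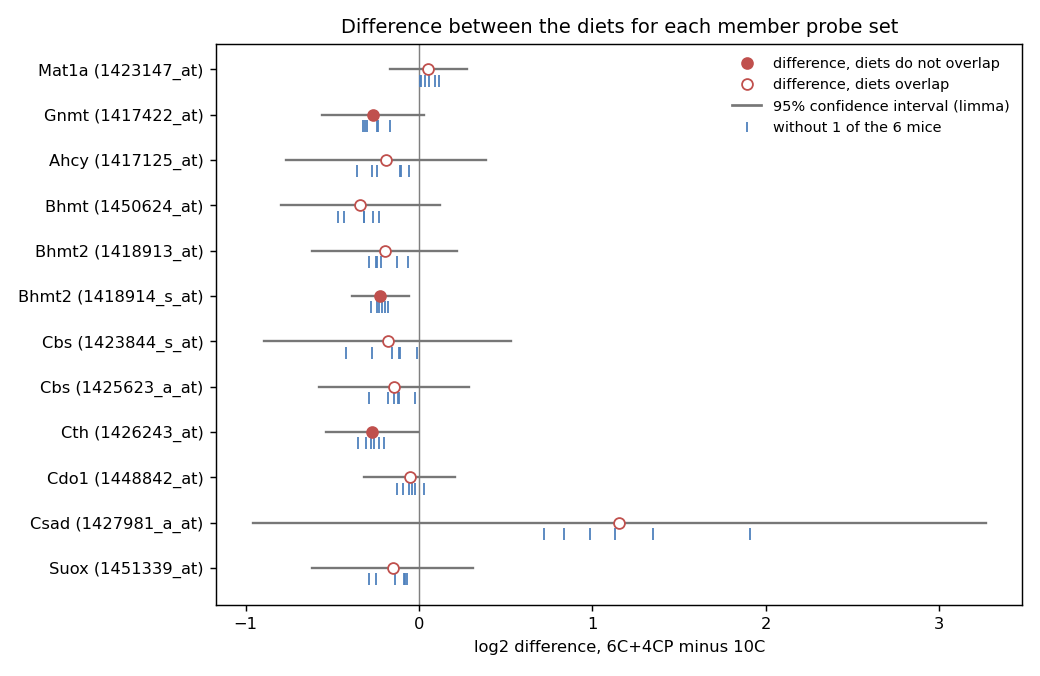
Difference between the diets (log2, 6C+4CP minus 10C) for each probe set, as circles with limma's 95% confidence interval (grey line), filled where the 3 mice of each diet do not overlap; blue ticks give the difference without each of the 6 mice. Of the 12 circles, 10 lie left of 0, and the interval of Csad runs from -0.96 to 3.27.

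Cdo1 encodes cysteine dioxygenase, which oxidises cysteine to cysteine sulfinate, and whose protein level is known to be set largely by its breakdown. Cdo1 read 12.24, 12.14 and 12.11 in 6C+4CP and 12.38, 12.07 and 12.20 in 10C. The 6C+4CP mice lay inside the range of the 10C mice. The difference was -0.053 (SE 0.096, interval -0.32 to 0.21, limma adjusted p = 0.95), and it turned to 0.028 without 10C replicate 1. Leaving out replicate 1 or replicate 3 of 6C+4CP gave -0.091 and -0.026, and leaving out 10C replicate 2 gave -0.13.

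Csad encodes cysteine sulfinate decarboxylase, which makes hypotaurine, the precursor of taurine. It read 9.77, 10.01 and 7.63 in 6C+4CP replicates 1 to 3, against 7.64, 8.38 and 7.93 in 10C replicates 1 to 3. Replicates 1 and 2 of 6C+4CP lay above every 10C mouse, and replicate 3 was the lowest of all 6 mice. The means were 9.14 ± 1.31 in 6C+4CP and 7.98 ± 0.37 in 10C (SD, n = 3 each). The difference of 1.15 (SE 0.77, interval -0.96 to 3.27) was larger in size than that of 98.9% of varying probe sets, yet less than the 2.38 between the highest and the lowest 6C+4CP mouse. It did not pass (limma adjusted p = 0.85, or 0.51 among varying probe sets). Without 6C+4CP replicate 3 the difference was 1.91 and the diets did not overlap. It was 0.72 when 6C+4CP replicate 2, the array with the raised 3' to 5' difference, was left out. Leaving out 6C+4CP replicate 1 gave 0.84.

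RefSeq lists 2 starts for Csad, and both windows are shown because it had the largest difference of the pathway. They are chr15:102205003-102205302 and chr15:102188994-102189293 (GRCm38.p6, minus strand), with the same motifs in capitals.
Csad upstream start: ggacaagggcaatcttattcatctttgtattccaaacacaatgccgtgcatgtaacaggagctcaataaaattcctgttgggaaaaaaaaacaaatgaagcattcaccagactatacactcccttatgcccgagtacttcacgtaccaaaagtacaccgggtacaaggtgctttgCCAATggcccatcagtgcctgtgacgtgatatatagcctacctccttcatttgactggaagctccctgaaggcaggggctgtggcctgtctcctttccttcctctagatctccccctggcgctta
Csad downstream start: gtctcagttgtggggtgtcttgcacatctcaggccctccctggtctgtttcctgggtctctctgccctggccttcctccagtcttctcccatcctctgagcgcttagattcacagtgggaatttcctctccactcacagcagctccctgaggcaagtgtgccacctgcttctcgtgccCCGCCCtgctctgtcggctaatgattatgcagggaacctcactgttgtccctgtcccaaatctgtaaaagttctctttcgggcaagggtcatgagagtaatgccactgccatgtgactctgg
The upstream window holds CCAAT at -75, and the downstream one CCGCCC at -72. The array's 1 probe set for Csad, 1427981_a_at, carries the suffix for transcripts of 1 gene that share a sequence. The values do not tell which start was used.

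Suox encodes sulfite oxidase, the mitochondrial enzyme that turns sulfite into sulfate. It read 8.82, 8.80 and 9.21 in 6C+4CP and 8.90, 9.27 and 9.12 in 10C. The 6C+4CP mice 1 and 2 lay below every 10C mouse, and replicate 3 lay among them. The difference of -0.15 (SE 0.17, limma adjusted p = 0.89) was -0.29 without 6C+4CP replicate 3 and -0.067 without 10C replicate 2. Leaving out replicate 1 or replicate 2 of 6C+4CP gave -0.088 and -0.081, and leaving out 10C replicate 1 gave -0.25.

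**Figure D3:**
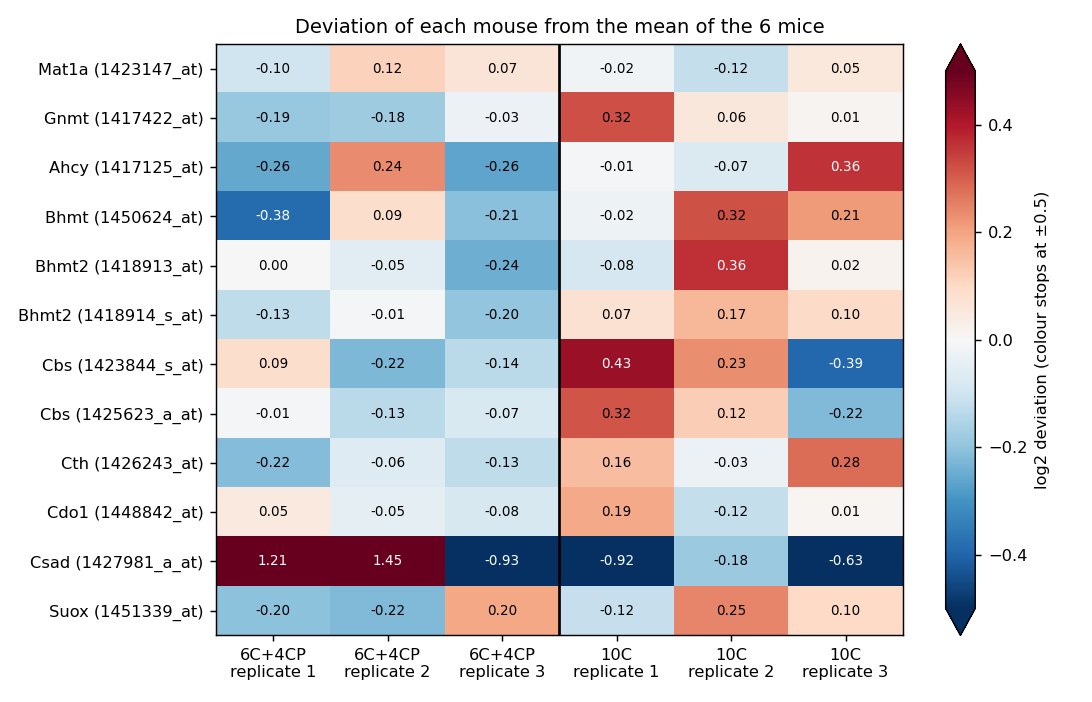
Deviation of each mouse from the mean of the 6 mice (log2) for the 12 probe sets, with 6C+4CP columns left of 10C columns; the colour stops at ±0.5 and the numbers give the full deviation. Ahcy is highest and Cbs lowest in 10C replicate 3, and within 6C+4CP the same holds for replicate 2.

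The mice of a diet differed among themselves in a pattern of their own. In both diets the mouse with the highest Ahcy value had the lowest value of both Cbs probe sets, 6C+4CP replicate 2 and 10C replicate 3. The same pair of mice had the highest Mat1a and Cth values of their diets. The array 10C replicate 2, with the high Saa1 value, was the highest of its diet for 5 of the 12 probe sets: Bhmt, both of Bhmt2, Csad and Suox. The count of probe sets without overlap depended on single mice. It was 4 of the 12 when 6C+4CP replicate 1 was left out, of which Mat1a was higher, and 3 when 10C replicate 2 was. It was 5 when any 1 of the other four mice was left out. The share of all varying probe sets that lay apart was 27.1% to 37.7% in these smaller sets, against 19.9% with all mice. Gnmt, Cth and 1418914_s_at of Bhmt2 were among the lower ones each time. After quantile normalization of the arrays, 1418914_s_at alone remained apart.

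Around these 10 genes, 52 others that feed or drain the pathway were listed, of which 46 had a probe set and 32 a varying one, each represented by its brightest varying probe set. Of the 32, 22 had a lower and 10 a higher mean in 6C+4CP, with a median difference of -0.083, and 7 were lower and 1 higher without overlap, beside 9.11% and 10.8% of all varying probe sets. Limma called 0 of them over all probe sets and 0 among varying ones, with 4 of 32 at an unadjusted p under 0.05, a level that 13.1% of all varying probe sets reached. By branch, all 5 varying genes of cysteine and sulfide oxidation had a lower mean, and all 3 of glutathione synthesis a higher one. Of all varying probe sets 52.1% had a lower mean. Got2 (-0.067, SE 0.15), Sqor (-0.057, SE 0.13), Ethe1 (-0.16, SE 0.26) and Gclm (0.083, SE 0.11) differed by less than their SE through these brightest probe sets. The other varying probe set of Got2 differed by -0.24 (SE 0.10) without overlap. That of Gclm differed by 0.25 (SE 0.11) with overlap, and neither passed (limma adjusted p = 0.70 for each). Methyltransferases had 5 lower and 1 higher, salvage and polyamines 4 and 2, sulfate use 3 and 2, remethylation 2 and 2, and S-adenosylmethionine recycling 2 and 0. Of the 6 genes of taurine production, conjugation and transport only the taurine transporter Slc6a6 varied, with a difference of -0.11, so Gadl1, Ado, Fmo1, Baat and Ggt6 gave no comparison. Mtr, Mtrr, Pemt and Gss also had nearly the same value on all arrays.

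Among methyl users, Nnmt, which methylates nicotinamide with S-adenosylmethionine, read 5.98, 6.51 and 6.02 in 6C+4CP, against 7.68, 8.49 and 7.56 in 10C, all 6C+4CP mice below all 10C mice. Of the 6C+4CP values, 5.98 and 6.02 lay below the array medians and 6.51 above. They are not shown to be above background, so no fold is given. The difference in value was -1.74 (SE 0.33) and did not pass (limma adjusted p = 0.50, or 0.12 among varying probe sets). Srm, the spermidine synthase, differed by -0.78 (SE 0.37) without overlap, and by -0.40 without 10C replicate 2, where it stood at 9.49. Aldh7a1, which can oxidise betaine aldehyde to betaine, differed by -0.15 (SE 0.038) without overlap. Chdh, the choline dehydrogenase that precedes it, differed by 0.13 (SE 0.081), with overlap, and by 0.062 without 6C+4CP replicate 2. Ahcyl2, a relative of Ahcy, differed by -0.14 (SE 0.070), also with overlap, and by -0.093 without 10C replicate 1. Limma adjusted p was 0.62 for Aldh7a1, 0.70 for Srm, 0.71 for Ahcyl2 and 0.83 for Chdh.

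Among the users of cysteine, Gclc, the catalytic subunit of the enzyme that starts glutathione synthesis, read 10.55, 10.65 and 10.91 in 6C+4CP and 10.16, 9.97 and 10.56 in 10C. Only 10C replicate 3 reached the 6C+4CP range, and the difference was 0.47 (SE 0.20), or 1.39 times higher in 6C+4CP (limma adjusted p = 0.70). It was 0.64 without 10C replicate 3 and 0.34 without 10C replicate 2. The other probe set of Gclc, 1455959_s_at, differed by 0.66 without overlap (limma adjusted p = 0.29). Its suffix, which the Chdh probe set also has, marks probes that match more than 1 transcript. A share of signal from other transcripts was not tested. Got1, the cytosolic aspartate aminotransferase, which also acts on cysteine sulfinate, read 8.32, 9.04 and 9.22 in 6C+4CP and 10.70, 9.67 and 9.54 in 10C. It lay lower in 6C+4CP without overlap, by -1.11 (SE 0.45, limma adjusted p = 0.70). Tst, the thiosulfate sulfurtransferase, differed by -0.18 (SE 0.056) without overlap. Slc7a11, the cystine and glutamate exchanger, differed by 0.061 (SE 0.039) without overlap, at values of 5.56 to 5.72 near the low end of the array, and by 0.024 without 10C replicate 3.

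Among the genes of sulfate use, Papss1, which makes the activated sulfate donor, read 7.42, 7.43 and 7.21 in 6C+4CP, against 8.10, 8.70 and 7.63 in 10C. Slc26a1, a sulfate transporter, read 8.37, 8.76 and 8.16 in 6C+4CP, against 9.22, 9.68 and 8.91 in 10C. Both lay lower in 6C+4CP without overlap, by -0.79 (SE 0.31) for Papss1 and -0.84 (SE 0.28) for Slc26a1, and neither passed (limma adjusted p = 0.70 for each). Papss1 differed by -0.52 without 10C replicate 2. The other probe set of Slc26a1 differed by -0.58 with overlap. Sult2a8, a liver sulfotransferase, differed by 0.071 (SE 0.044) with overlap, and by 0.039 without 10C replicate 1.

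**Figure D4:**
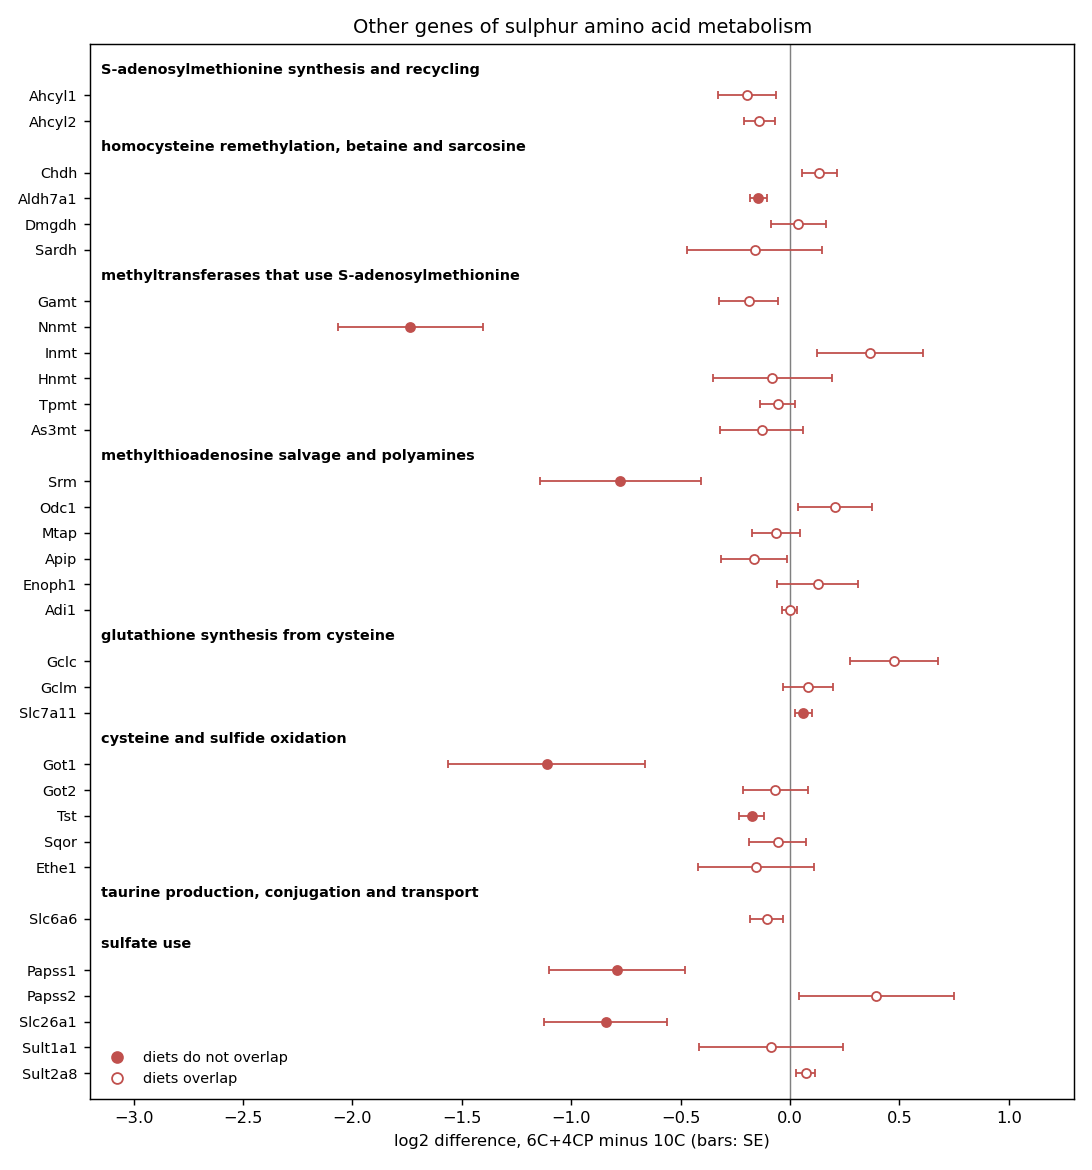
Difference between the diets (log2, 6C+4CP minus 10C, bars SE) for the 32 varying genes around the pathway, grouped by branch and filled where the 3 mice of each diet do not overlap. Nnmt, Got1, Slc26a1, Papss1 and Srm lie farthest left of 0, and the genes of glutathione synthesis lie right of it.

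Marker genes of liver cell types are given beside these values. Of the varying markers of periportal hepatocytes, the cells around the portal vein, 5 of 6 had a lower mean in 6C+4CP. The summed log2 values of the 6 were 65.8 to 66.6 in 6C+4CP and 66.7 to 67.2 in 10C, and the sums did not overlap. That separation rested on Aldh1b1, since the sums of the remaining genes overlapped between the diets. Singly, Cps1 and Hal were lower without overlap, and the other genes overlapped. Aldh1b1, the dimmest of the 6 (mean 6.88), read 6.43, 6.21 and 7.38 in 6C+4CP and 7.15, 7.16 and 6.94 in 10C. By difference, Cps1 was at -0.27, Hal at -0.26, Aldh1b1 at -0.41, Cyp2f2 at -0.062 and Arg1 at -0.042, while Pck1 was at 0.28. Of the pericentral markers 6 of 7 had a lower mean, with sums of 68.9 to 71.1 in 6C+4CP and 70.5 to 72.0 in 10C. Of these 7, Gulo was lower without overlap, by -0.40 (SE 0.10), and the rest overlapped. General hepatocyte markers went both ways, 4 lower and 3 higher, with sums of 89.1 to 90.2 in 6C+4CP and 89.0 to 89.8 in 10C. Among them Apoa1 and Ahsg were lower without overlap, and Ttr and Hnf4a were higher without overlap. Of the Kupffer cell and macrophage markers 7 of 8 had a lower mean, with sums of 63.6 to 68.1 in 6C+4CP and 65.4 to 69.0 in 10C, and the complement genes C1qa, C1qb and C1qc were among them. Of 2 varying B cell markers, Ighm was lower without overlap by -0.66 and Cd22 was higher by 0.050 with overlap, and the sums were 15.1 to 15.3 in 6C+4CP and 15.5 to 16.2 in 10C. The acute phase genes had sums of 47.4 to 51.0 in 6C+4CP and 47.5 to 60.0 in 10C, the highest in 10C replicate 2. Limma called 0 markers of these lists, and their part in the differences of the pathway was not tested.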

How the data were processed

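Total liver RNA of 3 mice per diet was measured on 1 Affymetrix array each, from 100 ng of RNA labelled with a 3' IVT Express kit, per the labels' protocols. The deposited table holds the authors' processed values, read as log2 from their range of 4.76 to 14.48. R 2.7.2 was used, per the submitters' processing notes, while background correction, summarisation and the logarithm's base were not given in the sources. No signal over background comes with the values, and precision is limited by the number of arrays. The 3 arrays of a diet are separate mice per the labels.

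The 64 Affymetrix controls were left out, leaving 45037 probe sets. GEO's platform annotation gave 1 symbol for 34945, several for 932 and none for 9160, and 34741 matched a RefSeq gene table by Entrez identifier, with 0 symbols changed. The 2 diets were compared by limma 3.58.1 under R 4.3.3 (lmFit, then eBayes with no trend, 6 arrays, no covariates), adjusted by Benjamini-Hochberg over all probe sets at 0.05. The script was tested on simulated data. Each difference is the mean of 6C+4CP minus that of 10C, and intervals are limma's at 95%. The 3' to 5' controls gave exact two-sided permutation p of 1.0 for Gapdh and 0.8 for beta-actin, where 0.1 is the smallest possible.

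The text names all 10 genes of the pathway and up to 12 varying surrounding genes by smallest p, each through its varying probe set of highest mean. Got2, Sqor, Ethe1, Gclm, Slc6a6 and the genes named as not varying were picked with their values in view. So were the marker genes given as examples and the genes that 1 left-out mouse sets apart. The genes and lists were chosen with earlier results of these data known. Marker lists for sinusoidal endothelium, stellate cells, cholangiocytes, T or NK cells, neutrophils, pancreatic acinar cells and erythroid cells held 1, 4, 0, 0, 0, 1 and 1 varying genes, with 0 called. The fit was repeated with a block for the replicate number, without each array, after quantile normalization or median centring, with filters on range and brightness, with a trended robust model, with 1 probe set per gene and at an adjusted p under 0.1.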

Additional observations from a re-analysis of the deposited data

How the results depend on the processing

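The count of 0 probe sets of the pathway called, and of 0 surrounding genes called, held under each alternative run. The trended robust run is no check for some genes. Its SE was 183 for Bhmt, 28 for Ahcy, 27 for Gnmt, 6.5 for Mat1a and 4.3 for Cdo1, so it could not have called them. Only runs that leave out an array or renormalize the values can change a difference, since the others keep it as it is. Median centring moved each difference only slightly. Under the runs that can change it, the direction held for 11 of the 12 differences. Cdo1 was the exception, at 0.028 without 10C replicate 1 (-0.13 to 0.028 over the left-out arrays). The median difference ran from -0.22 to -0.12 with 1 array left out, and the number of probe sets without overlap from 3 to 5, or 1 after quantile normalization. Over all probe sets the 109 calls were not stable: 3 with the replicate block, 1 after quantile normalization, 0 after median centring, 0 and 1 among probe sets ranging over 0.01 and over 0.1, 0 among the brighter part of the probe sets, 0 with a trended robust fit, 46 with 1 probe set per gene and 285 to 398 with 1 array left out. Chosen after seeing the data, the fit to varying probe sets called 0 with the replicate block and 0 with any 1 array left out. The cause was not tested. Deviations from the diet means correlated at 0.48, -0.089 and 0.085 between the diets for replicate numbers 1, 2 and 3. Between arrays of unlike number they correlated at -0.57 to 0.40. With 3 arrays per diet these values cannot decide whether the numbers pair the mice. The replicate block called 0 probe sets of the pathway, as the main fit did. With it the SE was 0.055 for Bhmt and 0.13 for Gnmt, against 0.17 and 0.11 in the main fit. The deposited values come without signal over background, so what low signal limits was not tested.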
